A study of Bos taurus with 4 samples.

Results

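The genes described here are those of the cell cycle and of DNA replication, as they are represented on a printed array of mouse cDNA clones. They were chosen by name: a library clone was taken when its platform annotation gave 1 gene symbol that belongs to the cyclins A, B, D and E, the cyclin-dependent kinases (Cdk), their inhibitors (Cdkn), the Cdc, Aurk, Plk and Bub families, the helicase subunits Mcm2 to Mcm7, replication factor C (Rfc), the DNA polymerases alpha, delta and epsilon, or is Ttk, Pcna or Top2a. This rule found 199 clones of 99 genes among 35964 library clones, and a bovine gene of the same symbol was listed for 98 of the 99 genes. Because the rule works on names, it also takes genes whose products act outside the cell cycle, and the clones were therefore sorted by role into replication (37 clones), G1 cyclins and kinases (28 clones), inhibitors of cyclin-dependent kinases (9 clones), mitosis (40 clones) and other names (85 clones).

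A dividing cell copies its DNA once and then separates the copies. Cyclins are proteins whose levels change through the cycle and which switch on the cyclin-dependent kinases, while the Cdkn inhibitors hold those kinases back. In S phase the Mcm2 to Mcm7 helicase opens the DNA, replication factor C loads the ring-shaped clamp Pcna, and the polymerases alpha, delta and epsilon copy the strands. In mitosis the Aurora and Polo-like kinases build the spindle, and the checkpoint proteins Bub1, Bub1b, Bub3 and Ttk delay chromosome separation until every chromosome is attached. Chromaffin cells are the catecholamine-secreting cells of the adrenal medulla and divide rarely in the adult gland. The neuropeptide PACAP reaches them from the splanchnic nerve and raises cyclic AMP through its receptor.

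Cultured bovine chromaffin cells kept for 6 h at 37 C in medium with 100 ng/ml of PACAP were set against control cells of the same repeat, in 4 repeats with 1 array each. RNA of PACAP-treated cells carried Cy5 and RNA of control cells carried Cy3 on every array, so that a dye effect and a treatment effect cannot be told apart. The labels number the repeats without saying whether they were separate animals or cultures, so the p-values measure the spread between these samples, which may be technical. The tissue entry of the labels reads brain beside the cell type chromaffin cells. Of 16 chromaffin genes looked for, 9 had a tested clone, whereas Dbh, Pnmt and Slc18a2 were among those without one. Of their 14 tested clones, 11 had control signal above background on at least 3 arrays. The tyrosine hydroxylase (Th) and chromogranin A (Chga) clones had it on all arrays, but the Scg2 and Npy clones on 2 and the Slc18a1 clone on 1. In such bulk RNA, fewer cells of a type and less RNA per cell cannot be told apart.

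The arrays differed in brightness. Between 91.9% and 98.4% of the library spots exceeded 2 background standard deviations in the PACAP channel, against 46.0% to 98.3% in the control channel. Blank positions exceeded that limit for 5.47% to 7.12% in the PACAP channel and for 9.81% to 13.3% in the control channel. Across all tested clones the log2 ratios of repeats 1, 2 and 3 correlated with each other at 0.23 to 0.39 (Pearson's r across clones, which are not independent replicates), whereas repeat 4 correlated with them at -0.13 to -0.01. Over the cell cycle clones alone these ranges were 0.15 to 0.40 and -0.10 to 0.05. Repeat 4 thus stood apart, and some of the values that it moves are given with and without it.

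No cell cycle or replication gene passed the test for a difference between PACAP-treated and control cells. The test was made on the log2 ratio of the PACAP signal over the control signal, with limma and Benjamini-Hochberg adjustment over all 35111 tested clones, at an adjusted p under 0.05. It called 0 of the 192 tested cell cycle clones, which cover 98 genes, and 0.0% of all clones. The lowest limma adjusted p was 0.454, both among the cell cycle clones and in the whole table. At an unadjusted p under 0.05, 4 cell cycle clones lay on the higher side in PACAP-treated cells, or 2.08% against 3.92% of all clones, and 8 lay on the lower side, or 4.17% against 6.46%. Without repeat 4 there were 8 on the higher side, or 4.17% against 4.87% of all clones, and 8 on the lower side, or 4.17% against 9.79%.

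Clones whose ratio had the same sign on every array were about as frequent as in the whole table. Of the 192 clones, 22 (11.5%) were above 0 on every array with a value, against 9.98% of all clones, and 18 (9.38%) were below 0 on every array, against 10.1%. The median of the clone means was 0.03 for the cell cycle clones and -0.01 for all clones on the log2 scale. With 3 arrays instead of 4, 36 clones were above 0 throughout without repeat 2 (18.8%, against 15.6% of all clones) and 47 without repeat 4 (24.5%, against 19.6%). Without repeats 1 and 3 in turn the shares were 15.1% and 14.6%, against 15.3% and 13.9%. Below 0 throughout were 28 without repeat 1 (14.6%, against 15.8%) and 32 without repeat 4 (16.7%, against 21.0%). Without repeats 2 and 3 in turn the shares were 14.1% and 12.5%, against 15.7% and 13.8%. The remaining 7 clones had a segmented spot on fewer than 3 arrays and were not tested. They were 1 clone each of Cdc25a, Cdc40, Cdc42ep3, Cdkn1a and Pold2 and 2 clones of Pcna. Cdkn1a, the p21 inhibitor, was left without any tested clone.

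**Figure D1:**
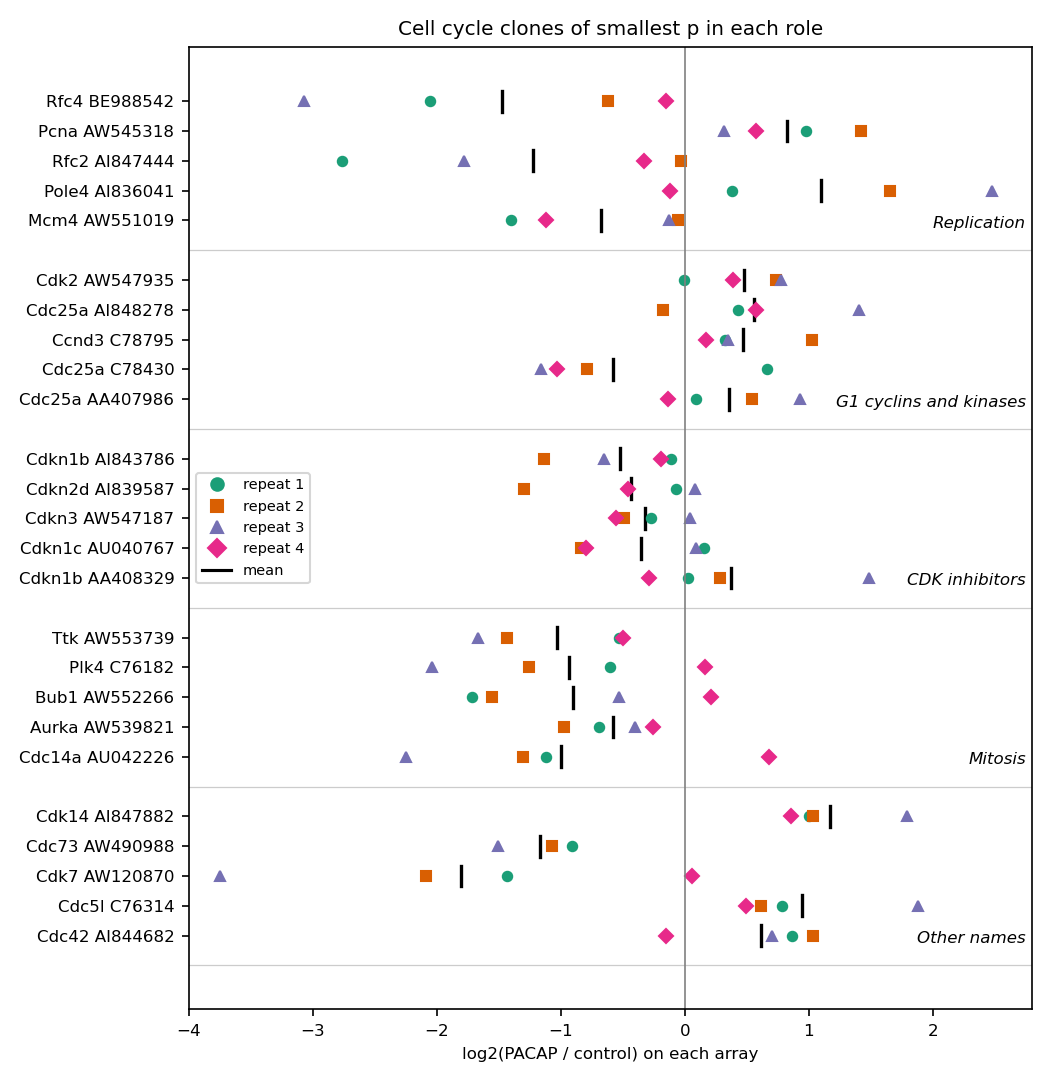
The log2 ratio of PACAP over control is plotted on each of the 4 arrays for the 5 clones of smallest p in each role, with the mean as a black bar. Points of 1 clone are often more than 1 log2 unit apart, Ttk and Aurka lie below 0 on every array, and Pcna and Cdk14 lie above 0 on every array.

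The replication genes were spread evenly about 0. Of 34 tested clones of 21 genes, 17 had a mean log2 ratio above 0 and 17 below, with a median of 0.02, and their median was 0.10, -0.03, 0.14 and 0.07 on repeats 1 to 4. By unadjusted p under 0.05, 2 clones lay on the higher side and 2 on the lower side (5.88% each, against 3.92% and 6.46% of all clones). Every array was above 0 for 5 clones and below 0 for 5 (14.7% each, against 9.98% and 10.1% of all clones).

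Pcna, the sliding clamp that holds the polymerases on DNA, had 1 tested clone (AW545318). Its normalised signal was 349.1, 391.4, 170.5 and 549.3 scanner units in PACAP-treated cells of repeats 1 to 4, against 176.8, 146.2, 136.9 and 370.1 in control cells. The PACAP value was the higher of the pair on all 4 arrays, although the ranges of both channels overlapped. The log2 ratio was 0.98, 1.42, 0.32 and 0.57, with a mean of 0.82 ± 0.48 (SD, n = 4), a 95% interval of 0.20 to 1.45 for this clone alone, and a limma adjusted p of 0.454. In control cells its signal exceeded background on every array.

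The clamp loader gave opposite values from different clones. Rfc4 clone BE988542 had log2 ratios of -2.06, -0.62, -3.08 and -0.16 on repeats 1 to 4. Its mean was -1.48 ± 1.34 (SD, n = 4), and -1.92 ± 1.24 without repeat 4. All 4 arrays lay below 0, 2 of them far below, and the spots were small, with a median of 42 pixels. The Rfc4 clones AI838877 and AI848155 had means of -0.57 ± 0.86 and 0.58 ± 0.52, and the title of AI838877 in the scanner files names a translation initiation factor instead. Of the 2 Rfc2 clones, AI847444 had log2 ratios of -2.77, -0.03, -1.78 and -0.33, and AW552543, whose control signal was above background on all arrays, had a mean of -0.13 ± 0.14. Rfc2 was thus far below 0 on repeats 1 and 3 in the first clone and close to 0 on every array in the second. Rfc1, the large subunit, had 3 clones between -0.40 and 0.22.

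Among the polymerase subunits, Pole4 clone AI836041 had log2 ratios of 0.38, 1.66, 2.48 and -0.12 on repeats 1 to 4, with a mean of 1.10 ± 1.19 (SD, n = 4). Repeat 4 was the one array below 0, and without it the mean was 1.50 ± 1.06 (limma adjusted p = 0.229). The other 3 Pole4 clones had means of 0.36 ± 0.13, -0.25 ± 0.29 and -0.33 ± 0.76. Pold3, a subunit of polymerase delta, had 3 clones with means of 0.12 to 0.42, of which AW543798 had the smallest spread of any replication clone (0.18 ± 0.09).

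The helicase subunits had means on both sides of 0. Mcm4 was lowest, with log2 ratios of -1.40, -0.06, -0.13 and -1.12 on repeats 1 to 4 and a mean of -0.68 ± 0.69 (SD, n = 4). It was low on repeats 1 and 4 and near 0 on the other two. Mcm2 had a mean of -0.35 ± 0.82, Mcm3 of 0.09 ± 0.81, Mcm5 of -0.01 ± 0.65 and Mcm7 of 0.32 ± 0.53, and the 2 Mcm6 clones had means of 0.35 ± 0.50 and 0.04 ± 1.17. Mcm4 alone of the 6 subunits was below 0 on all arrays. Cdc6, which helps load this helicase onto origins, had log2 ratios of 0.64, 1.18, 0.79 and -0.15, with a mean of 0.62 ± 0.56 and control signal above background on 2 arrays. Cdc6 was above 0 on 3 arrays, and it is named here after its values were seen, as are Aurkb, Aurkc, Bub1b, Plk1, Cdc20, Cdk6, Cdkn2c and the second clones of Rfc2, Cdk2 and Bub1.

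**Figure D2:**
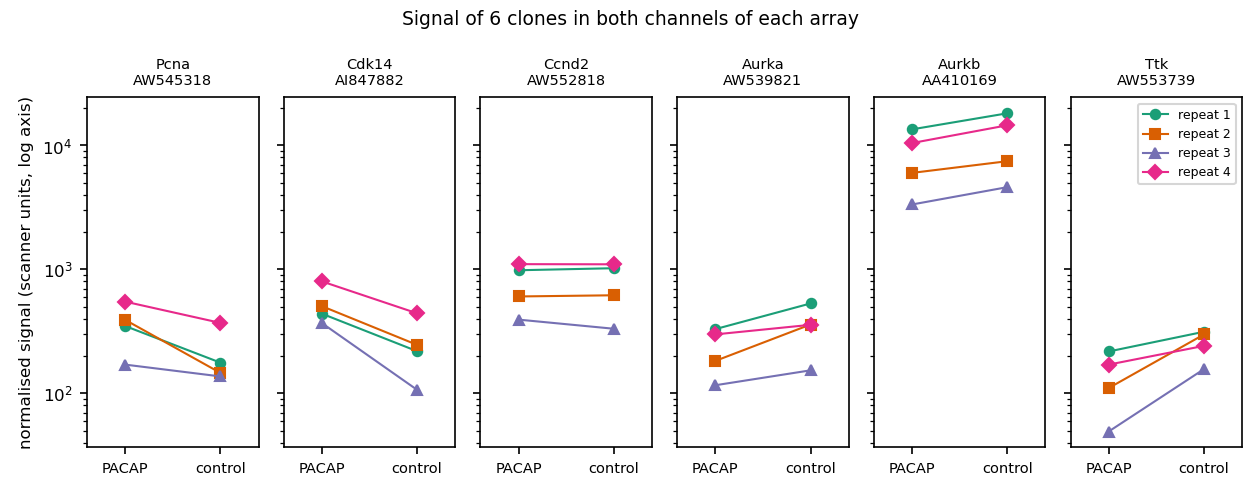
Normalised signal in scanner units (log axis) is plotted for 6 clones, with the PACAP channel left of the control channel and a line joining the 2 channels of each array. Lines slope down towards control for Pcna and Cdk14, run nearly level for Ccnd2, and slope up towards control for Aurka, Aurkb and Ttk on all 4 arrays.

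The G1 genes, which carry a cell from rest to the start of DNA synthesis, had values on both sides of 0. Their 27 tested clones of 9 genes had a median of -0.01 and a range of -0.58 to 0.56. None had an unadjusted limma p under 0.05, against 3.92% higher and 6.46% lower of all clones. On every array with a value, 1 clone was above 0 and 2 below (3.7% and 7.41%, against 9.98% and 10.1% of all clones). Ccnd2, the cyclin D2 gene, had 6 clones with means of -0.15 to 0.04, the narrowest range of any gene with that many clones here. For clone AW552818 the signal was 984.3, 604.9, 393.3 and 1102 in PACAP-treated cells, against 1022, 618.3, 332.0 and 1099 in control cells. Both channels were nearly equal on every array, with a mean log2 ratio of 0.04 ± 0.14 (SD, n = 4) and a 95% interval of -0.50 to 0.58.

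The other D cyclins were measured less firmly. Ccnd1, the cyclin D1 gene that responds to growth factors, had 1 clone with log2 ratios of -0.61, -0.06, -0.32 and -0.22, with a mean of -0.30 ± 0.23 and control signal above background on 1 of 4 arrays. All 4 values were below 0, and limma's adjusted p was 0.636. Ccnd3 had 4 clones with means of -0.08 to 0.47, of which C78795 was above 0 on all arrays (0.32, 1.02, 0.35 and 0.17). Of their kinase partners, Cdk4 had 3 clones with means of -0.29 to 0.15, of which 1 carries the title of fibromodulin, and Cdk6 had 1 clone with a mean of 0.09 ± 0.39.

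Cdk2, the kinase that drives entry into S phase with cyclin E, had a clone (AW547935) with log2 ratios of -0.01, 0.74, 0.78 and 0.39, with a mean of 0.47 ± 0.37 (SD, n = 4) and a limma adjusted p of 0.519. It lay above 0 on 3 arrays and close to 0 on repeat 1, and the second Cdk2 clone had a mean of 0.13 ± 0.20. Cdc25a, the phosphatase that removes the inhibitory phosphate from Cdk2, had 6 tested clones that ran from -0.58 to 0.56, 3 above and 3 below 0. These 6 clones are annotated to 1 gene and gave no common direction, and AI849071 among them carries the title of hemopoietic cell kinase. Cdc34, a ubiquitin-conjugating enzyme that acts with the ligase that removes G1 inhibitors, had the smallest spread of all cell cycle clones: AI841383 had log2 ratios of -0.23, -0.26, -0.23 and -0.30, with a mean of -0.25 ± 0.03. The other Cdc34 clones had means of -0.12 ± 0.15 and 0.07 ± 0.38, so that the value near -0.25 was that of 1 clone of 3.

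The inhibitors of cyclin-dependent kinases had the lowest median of the roles, -0.19 over 8 tested clones of 5 genes. That median was carried by repeats 2 and 4: it was -0.06, -0.67, 0.09 and -0.29 on repeats 1 to 4. None of the clones had an unadjusted limma p under 0.05, against 3.92% higher and 6.46% lower of all clones. On every array, 0 clones were above 0 and 1 below (0.0% and 12.5%, against 9.98% and 10.1% of all clones). Cdkn1b, which encodes p27, had 3 clones with means of -0.52 ± 0.47, -0.06 ± 0.29 and 0.38 ± 0.78, the last being 0.60 ± 0.78 without repeat 4 and 0.01 ± 0.28 without repeat 3. Cdkn1b clone AI843786 was below 0 on all arrays (-0.11, -1.14, -0.65 and -0.19), but in control cells it exceeded background on 1 array of 4. Cdkn1c, which encodes p57, had log2 ratios of 0.15, -0.84, 0.09 and -0.80, with a mean of -0.35 ± 0.54. Cdkn2d, which blocks Cdk4 and Cdk6, had -0.07, -1.30, 0.08 and -0.46, with a mean of -0.44 ± 0.62, and Cdkn3, a phosphatase that acts on cyclin-dependent kinases, had -0.27, -0.49, 0.04 and -0.56, with a mean of -0.32 ± 0.27. In each of these 3 genes repeat 2 and repeat 4 were the lowest arrays, and the 2 clones of Cdkn2c had means of 0.17 and 0.19.

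**Figure D3:**
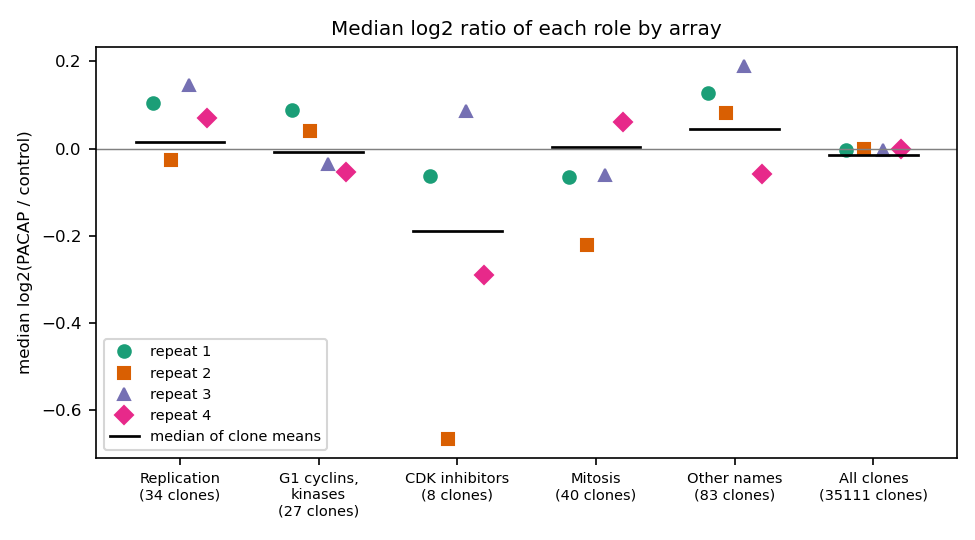
The median log2 ratio of PACAP over control is plotted for each role on each of the 4 arrays, beside that of all tested clones. The inhibitors range from -0.67 to 0.09 between arrays, and mitosis lies at -0.22 on repeat 2 and between -0.07 and 0.06 on the others.

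The mitotic genes lay on both sides of 0. Of 40 tested clones of 22 genes, 20 had a mean above 0 and 20 below, and the median was 0.003. With 1 value for each gene the median was -0.14 (clones averaged) or -0.17 (brightest clone), against -0.04 and -0.03 over the whole table. With the deposited ratios, centred on the median of each array, it was -0.43, against -0.28 for all clones. By unadjusted p under 0.05, 0 clones were on the higher side and 4, of Ttk, Plk4, Bub1 and Aurka, on the lower side (10%, against 6.46% of all clones). On every array with a value, 3 clones were above 0 and 6 below (7.50% and 15.0%, against 9.98% and 10.1% of all clones).

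Ttk, a kinase of the spindle assembly checkpoint, had 1 clone (AW553739). Its signal was 217.6, 110.3, 49.2 and 170.5 in PACAP-treated cells of repeats 1 to 4, against 313.9, 298.4, 156.7 and 241.5 in control cells. The PACAP value was the lower of the pair on every array, by most on repeats 2 and 3. The log2 ratio was -0.53, -1.44, -1.67 and -0.50, with a mean of -1.04 ± 0.61 (SD, n = 4), a 95% interval of -1.71 to -0.36 and a limma adjusted p of 0.454. The other spindle checkpoint genes had values that differed by clone. Bub1 clone AW552266 had log2 ratios of -1.72, -1.56, -0.53 and 0.21 (mean -0.90 ± 0.91, and -1.27 ± 0.64 without repeat 4), and the second Bub1 clone had a mean of 0.28 ± 0.45. Bub1 was thus below 0 on 3 arrays in 1 clone and above 0 on 3 arrays in the other. The 5 Bub3 clones had means of -0.13 to 0.48, and Bub1b clone AU044848 had a mean of -0.63 ± 1.40 that rested on repeat 2 and was 0.07 ± 0.20 without it. A second Bub1b clone had log2 ratios of 0.54, 0.63 and 0.19 on repeats 1 to 3 (mean 0.45 ± 0.23, n = 3). Its control signal was above background on 0 arrays, so that this ratio is poorly measured.

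Of the Aurora kinases, Aurka, which acts at centrosomes and spindle poles, had a signal of 329.6, 182.6, 116.2 and 298.9 in PACAP-treated cells, against 531.1, 359.2, 153.3 and 357.1 in control cells. The PACAP value was lower on every array, with log2 ratios of -0.69, -0.98, -0.40 and -0.26 and a mean of -0.58 ± 0.32 (SD, n = 4). Aurkb, the kinase of the chromosomal passenger complex, was the brighter of these spots, with 13491, 6008, 3340 and 10461 in PACAP-treated cells against 18177, 7464, 4608 and 14544 in control cells. Its log2 ratios were -0.43, -0.31, -0.46 and -0.48, which differed little between arrays, with a mean of -0.42 ± 0.07, a 95% interval of -0.95 to 0.11 and a limma adjusted p of 0.522. Limma draws the spread of a single clone towards that of all clones, which widens the interval of a clone as steady as this one. Aurkc had 1 clone with a mean of 0.43 ± 0.55 and control signal above background on 1 array.

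Plk4, the kinase that starts centriole duplication, had log2 ratios of -0.60, -1.26, -2.04 and 0.17, with a mean of -0.93 ± 0.94, and its spots had a median of 42.5 pixels. Cdc14a, a phosphatase of the centrosome, had -1.12, -1.31, -2.25 and 0.68, with a mean of -1.0 ± 1.22. In both, repeats 1 to 3 lay below 0 and repeat 4 above it. Without repeat 4 the means were -1.30 ± 0.72 for Plk4 (limma adjusted p = 0.223) and -1.56 ± 0.61 for Cdc14a (limma adjusted p = 0.166). The 2 Plk1 clones had means of -0.34 ± 0.80 and 0.12 ± 0.47.

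Cdk1, the mitotic kinase, had a mean of -0.15 ± 0.43, with log2 ratios of -0.18, 0.39, -0.66 and -0.13. Top2a, the topoisomerase that untangles chromosomes, had 2 clones with means of 0.28 ± 0.38 and -0.13 ± 0.77. The 3 Ccna2 clones (cyclin A2) had means of -0.41, 0.10 and 0.57, and the lowest of them carries the title of another gene. Cdc20, which activates the anaphase-promoting complex, had a mean of 0.02 ± 0.20 with control signal above background on all arrays. Of the subunits of that complex, Cdc23 had 3 clones between -0.64 and -0.01, 2 of which carry the title of a kinesin, Cdc26 had 3 between -0.22 and 0.41, and Cdc27 had 3 between 0.02 and 0.39.

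The other names, 83 tested clones of 41 genes, hold Cdc42 and its partners, Cdk5 with its activators, the kinases of transcription and further proteins named for yeast cell division mutants. Their median was 0.04, with 51 clones above and 32 below 0. Every array was above 0 for 13 clones (15.7%, against 9.98% of all clones) and below 0 for 4 (4.82%, against 10.1%). On each side 2 clones had an unadjusted limma p under 0.05 (2.41%, against 3.92% higher and 6.46% lower of all clones). Cdk14, a kinase that acts with membrane-bound cyclin Y in Wnt signalling, had the smallest p of all cell cycle clones. Its signal was 439.1, 505.0, 368.8 and 800.1 in PACAP-treated cells, against 218.7, 246.0, 106.7 and 442.1 in control cells. The PACAP value was the higher of the pair on every array, with log2 ratios of 1.00, 1.04, 1.79 and 0.86, a mean of 1.17 ± 0.42 (SD, n = 4), a 95% interval of 0.57 to 1.77 and a limma adjusted p of 0.454. In control cells it exceeded background on 2 arrays of 4.

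Cdc42, which organises actin and cell polarity, had 6 clones, all with a mean above 0, from 0.17 to 0.61. Among the 92 genes on the array with exactly 6 tested clones, 9.78% had all means above 0. The median over the Cdc42 clones was 0.66, 0.55 and 0.41 on repeats 1, 2 and 3 and -0.14 on repeat 4. Clone AI844682 had the highest mean, 0.61 ± 0.53, with log2 ratios of 0.86, 1.04, 0.70 and -0.15, and without repeat 4 its mean was 0.87 ± 0.17 (limma adjusted p = 0.273). It was above 0 on 3 arrays and below 0 on repeat 4, as were clones AI835631 and AI852026, while clones AI839999 and AU046285 were above 0 on all arrays. The sixth clone, AW556230, had log2 ratios of 0.69, -0.78, 1.29 and -0.51, with a mean of 0.17 ± 0.98. Without repeat 3 the mean of AW556230 was -0.20 ± 0.78, and 5 of the 6 clones had a mean above 0. The deposited log2 ratios carry a second background subtraction and no loess, and were centred here on the median of each array. With them, 3 of the 6 clones had a mean above 0 and AI844682 had a mean of -1.63. With median centring of the main signals and no loess, all 6 were above 0. Clones of 1 gene share their target, and these 6 are not separate tests.

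Cdc5l, a component of the splicing machinery, had a clone (C76314) with log2 ratios of 0.79, 0.62, 1.88 and 0.50 and a mean of 0.95 ± 0.64, while its other clones had means of -0.29 and 0.04. Cdc73, part of the Paf1 complex of transcribing polymerase, had a clone (AW490988) with -0.91, -1.07 and -1.51 on the 3 arrays that gave a value (mean -1.16 ± 0.31, n = 3), and other clones at -0.31 and 0.16. In both of these genes 1 clone stood far from 0 and the others did not. Cdk7, the kinase that activates other cyclin-dependent kinases and is part of TFIIH, showed the same: clone AW120870 had log2 ratios of -1.43, -2.09, -3.75 and 0.05 (mean -1.81 ± 1.58, and -2.43 ± 1.20 without repeat 4) on spots with a median of 19.5 pixels, and the other 4 clones had means of 0.09 to 0.32. Cdk5, a kinase of neurons and neuroendocrine cells, had 5 clones with means of -1.24 to 0.16, 4 of them below 0. The lowest, AW048668, rested on repeat 3, at -0.67, -0.04, -4.20 and -0.06, and without that array its mean was -0.26 ± 0.36. Its activator Cdk5r1 had 6 clones from -0.25 to 0.30.

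**Figure D4:**
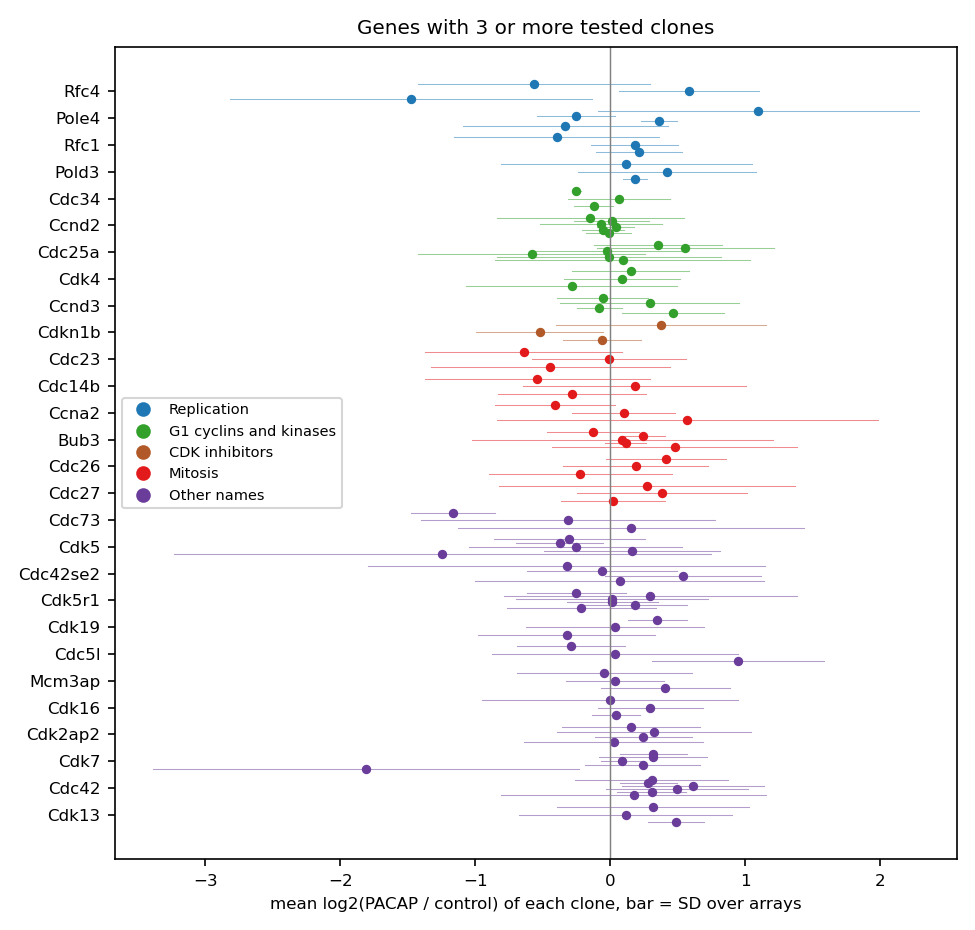
Each point is the mean log2 ratio of PACAP over control of 1 clone, with its SD over arrays, for the 28 genes with 3 or more tested clones. The 6 Ccnd2 clones lie within -0.15 to 0.04, the 6 Cdc42 clones lie between 0.17 and 0.61, and Rfc4 and Cdk7 each have a clone far below the rest.

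Clones of the same gene agreed in sign about as often as in the whole table. Of the 28 genes with 3 or more tested clones, 7 (25%) had all clone means on 1 side of 0, against 24.9% of 2611 such genes on the array. These were Cdc42, Cdk2ap2, Cdk13, Cdk16, Cdc27 and Pold3 above 0 and Cdc23 below 0. For Cdk16 and Cdc23 the common sign rested on a clone mean very close to 0, of 0.000 and -0.01. The spread between clones was widest for Rfc4 (SD 1.03 over 3 clones) and Cdk7 (0.92 over 5) and narrowest for Ccnd2 (0.07 over 6). Further ranges were 0.03 to 0.32 for Cdk2ap2, 0.12 to 0.49 for Cdk13, 0.00 to 0.30 for Cdk16, -0.54 to 0.18 for Cdc14b, -0.32 to 0.54 for Cdc42se2, -0.32 to 0.35 for Cdk19 and -0.04 to 0.41 for Mcm3ap. Over all member clones, 12 carry a scanner title that names another gene than the annotation, and 10 of them were tested. Among these are the Cdk19 clones AI851096 and AW556089, titled phosphodiesterase 8A.

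The steadiest values came from clones with measurable control signal. In 75 of the 192 clones the control signal was above background on all arrays, and their median SD over arrays was 0.36. It was 0.69 for the 57 clones above background on 3 arrays and 0.55 for the 60 clones above background on 2 arrays or fewer. In the PACAP channel, 178 of the 192 clones were above background on all arrays. Means beyond 1 log2 unit on either side of 0 were found in 3 clones of each of these classes: Ttk, Cdk7 and Cdc14a in the first, Rfc2, Rfc4 and Cdk5 in the second, and Cdk14, Pole4 and Cdc73 in the third. Cdc14a was just past that limit.

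**Figure D5:**
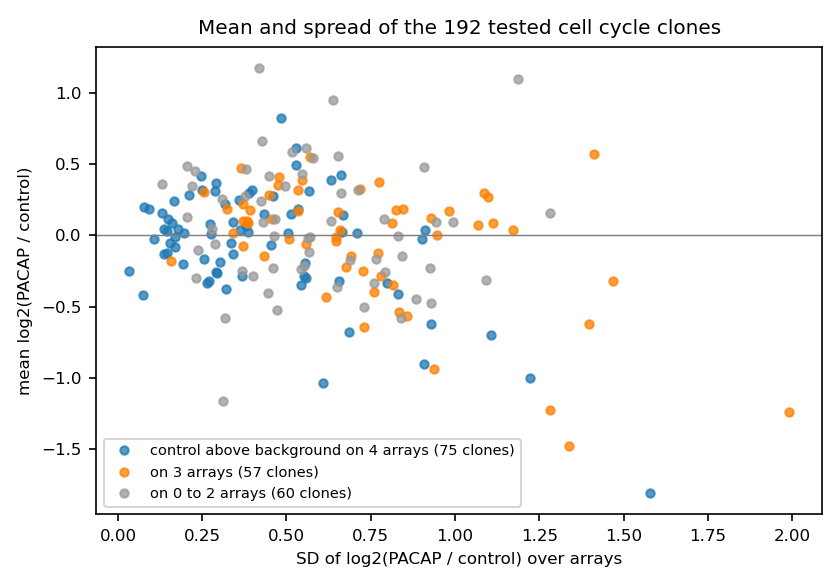
The mean log2 ratio of PACAP over control of each of the 192 tested clones is plotted against its SD over arrays, coloured by the number of arrays with control signal above background. Clones with control signal on all arrays gather at low SD, with a median of 0.36, and of the clones beyond 1 log2 unit only Cdk14 and Cdc73 have an SD below 0.5.

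Replication and mitosis were set side by side because they follow each other in the cycle. The replication median minus the mitosis median was 0.17, 0.20, 0.21 and 0.01 on repeats 1 to 4, and the medians of the clone means, 0.02 and 0.003, differed by 0.01. The per-array differences were above 0 on all arrays, and repeat 4 had the smallest. Without repeat 4 the difference of the medians was -0.06, without repeat 2 it was -0.02, and with 1 value for each gene it was 0.14 (clones averaged) or 0.16 (brightest clone). It was 0.12 with median centring, 0.14 with scaling between arrays and 0.71 with the deposited log2 ratios, centred on the median of each array.

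Other genes of these pathways were taken from 3 further lists and gave no call either. The list of cell cycle regulators also held Plk2 and Plk3, which are counted among the other names above. Of 57 tested clones for other proteins of DNA synthesis, limma called 0 after adjustment, and 6 on the higher and 5 on the lower side had an unadjusted p under 0.05 (10.5% and 8.77%, against 3.92% and 6.46% of all clones). Their smallest p belonged to clones of Orc4, a subunit of the origin recognition complex, at 0.77 ± 0.25, Rpa3, which coats single-stranded DNA, at 0.84 ± 0.49, and Dbf4, the activator of the replication kinase Cdc7, at -0.63 ± 0.13. The further clones had means of 0.59 and 0.88 for Orc4, -0.59 and 0.03 for Rpa3, and -0.82, -0.36 and 0.46 for Dbf4. Of 91 clones for other mitotic proteins 0 were called, with 4 on the higher and 3 on the lower side by unadjusted p (4.4% and 3.3%). These were led by Anapc10 of the anaphase-promoting complex at -1.08 ± 0.29 (n = 3), the spindle motor Kif11 at -1.15 ± 0.92, and the cohesin subunit Smc1a at 0.99 ± 0.81. Kif11 had 1 clone, while the further clones had means of -0.22 and 0.26 for Anapc10 and 0.51 and 0.63 for Smc1a. Of 61 clones for other cell cycle regulators 0 were called, with 1 on the higher and 4 on the lower side by unadjusted p (1.64% and 6.56%), led by the DNA damage kinase Atm at -0.92 ± 0.34, Ccng1 at -0.65 ± 0.26 and Ccnh, the cyclin of Cdk7, at -1.51 ± 1.85. The further clones had means of -0.32 and 0.61 for Atm, -0.72 and -0.28 for Ccng1 and 0.90 for Ccnh, which was the 1 clone on the higher side. The medians of the 3 lists were -0.12, 0.06 and -0.04.

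Marker genes of other cell types that such cultures can hold were examined beside these. Fibroblast and matrix genes had a median of 0.04 over 36 clones, endothelial genes 0.11 over 10, Schwann and sustentacular genes -0.02 over 19, adrenal cortex genes -0.09 over 13, leukocyte genes 0.21 over 10 and erythrocyte genes -0.31 over 2. Limma called 0 of these clones after adjustment. At an unadjusted p under 0.05, 2 fibroblast clones (5.56%) and 1 cortex clone (7.69%) lay on the higher side, against 3.92% of all clones. On the lower side were 1 fibroblast clone (2.78%) and 1 of the 10 endothelial clones, against 6.46% of all clones. The 14 chromaffin clones had a median of 0.17, and 0 were called. By unadjusted p, 3 of them lay higher (21.4%) and 1 lower (7.14%). The part of the other cell types in the values of the cell cycle clones was not tested.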

How the data were processed

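Each of the 4 deposited scanner tables held 37632 spots. The authors' spot intensity means are already background-subtracted, per the file headers and values, and their deposited calibrated ratio is the Cy5 mean over the Cy3 mean, divided by a calibration factor. A deposited quality fraction per spot and the spot area in pixels were read. The authors' series table holds log2 ratios that were recomputed from the scanner values as a second background subtraction, a floor of 1 and the calibration, without centring; it served to join the platform annotation to the spots (35825 of 35873 entries, within 0.1) and as an alternative. Image and scan software are not given in the sources used here.

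Intensities were floored at 1 and a global loess curve was fitted on each array with limma 3.58.1 under R 4.3.3. A clone was tested when its signal exceeded 2 background standard deviations in at least 1 channel on at least 3 arrays. Spots of 1 clone were averaged. The log2 ratio of PACAP over control was tested against 0 with lmFit and eBayes, with Benjamini-Hochberg adjustment, and the 95% intervals use the same moderated errors without adjustment. The script was tested on simulated data. Both channels of a repeat share an array, so the ratio is paired by construction.

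Named were the 5 tested clones of smallest p in each role, every tested clone of Pcna, Ttk, Top2a, Ccnd1, Ccnd2, Cdkn1a, Cdkn1b, Cdk1, Cdk4, Ccna2, Ccnb1 and Mcm2 to Mcm7, and genes with at least 3 tested clones, the last as ranges of clone means. The members and lists were chosen with earlier results of these data known. Alternatives were centring on the median, loess by print tip, scaling of the arrays to each other, normexp with an offset of 50, a floor of 16, the deposited log2 ratios, 3 filters, trended robust moderation, 1 value for each gene, and each array left out. The deposited log2 ratios were first centred on the library median of each array. A planned motif search in promoters was not run. The number of arrays limits the precision.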

Additional observations from a re-analysis of the deposited data

How the results depend on the processing

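No member was called under any alternative except the deposited log2 ratios, centred on the median of each array. There 1 of 192 members was called, against 371 of 34892 clones over the whole table. It was Rfc4 BE988542 at -5.21 (limma adjusted p = 0.011), and the cause was not tested. Over the whole table, calls numbered 2 of 35111 with scaling between arrays and 3 of 35111 with trended robust moderation. So centred, the deposited ratios put the median of all clones at -0.28, that of the members at -0.28, of replication at 0.28 and of mitosis at -0.43. Median centring gave medians of 0.10 for members and 0.10 for replication, scaling gave replication 0.12, and leaving out spots under 60 pixels gave it 0.09. The mitosis median was -0.17 with the brightest clone of each gene and -0.14 with clones averaged. Members above 0 on every array numbered 12 with both channels above background, 10 with the brightest clone and 9 with clones averaged (9.30%, 10.2% and 9.18%, against 9.68%, 9.44% and 9.10% of all tested). Those below 0 on every array numbered 10 with the deposited ratios and 9 with clones averaged (5.21% and 9.18%, against 8.64% and 10.4%). The filter on dim spots removed no clone.

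Leaving out 1 array in turn gave 28 to 47 members above 0 and 24 to 32 below 0 on every array left. These were 14.6% to 24.5% and 12.5% to 16.7%, against 13.9% to 19.6% and 13.8% to 21.0% of all clones. Medians in these runs were -0.018 to 0.030 for members, -0.068 to 0.005 for replication and -0.10 to 0.02 for mitosis. Of the 25 clones chosen as the 5 of smallest p in each role, which favours a steady sign, 20 kept their sign in each alternative run on clones, as did 6 of the 23 other clones named by gene. The 5 others of the 25 turned: with the deposited ratios Bub1 AW552266 to 0.089, Cdc42 AI844682 to -1.63 and Plk4 to 0.78, and with median centring Cdkn1c to 0.57 and Cdkn3 to 0.22. Added after seeing the data, leaving out clones whose title names another gene gave 0 calls and medians of 0.06 for replication and 0.02 for mitosis. No paired analysis was possible because each ratio already pairs PACAP and control on its array. With both channels above background, 0 of 129 members and 0 of 20366 clones were called.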
